A study of Mus musculus with 2 samples.

Results

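Aminoacyl-tRNA synthetases are the enzymes that load each tRNA with its amino acid, and the family was read here in mouse thymus RNA. Members were chosen by name alone, as every cytosolic and mitochondrial synthetase of the 20 amino acids. All 38 were found among 23296 named genes, of which 21 act in the cytosol and 17 only in mitochondria, and all 38 passed the filter of a mean of at least 1 RPKM that left 11095 genes to be tested. Where a gene had several transcripts, the most abundant one over both libraries stood for it.

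The study compared the thymus of WT Balb/c mice with that of miR-146a transgenic (Tg) mice, in which miR-146a is overexpressed systemically. The paper names the strain of the WT controls and cites an earlier report for the Tg line. Whether both share a strain was not checked. The sources used here do not name the promoter that drives the transgene, and mature miRNA is lost in poly(A) selection, so the product of the transgene was not checked. Each genotype gave 1 library, made from the pooled thymuses of 1 male and 1 female at 5 to 6 weeks of age. The values therefore compare 2 libraries, no test between genotypes was possible, and no spread between animals was measured. Levels are in RPKM, the reads of a transcript per kilobase of its length, scaled to the size of the library, and are given for WT first and Tg second. A ratio divides the Tg level by the WT level, with no pseudocount. Its 95% interval, in parentheses after it, is the exact binomial one on the fragments recovered from the RPKM steps and covers counting error only.

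Each enzyme first activates its amino acid with ATP and then transfers it to the matching tRNA, so that the ribosome can read the code. The enzymes fall into class I and class II, which differ in the fold of the catalytic domain. Mitochondria translate their own few messages and import a separate set of synthetases encoded in the nucleus, most of which carry the suffix 2 in their gene names. Several cytosolic enzymes sit together in the multisynthetase complex. When amino acids run short, uncharged tRNA activates the kinase GCN2, and the transcription factor ATF4 then acts on amino acid response elements in the promoters of several cytosolic synthetases.

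The core of that element, TGATGNAA, was searched on both strands of the promoter windows of RefSeq (GRCm38.p6), which run from 250 bases before to 50 bases after the start. The matches are shown because all of them lay in cytosolic members. The core is in capitals, and each line reads along the strand that carries it.
Aars (chr8:111033722-111033745, minus strand): ggctcggcTGATGCAAtgctcaag
Aars, second match (chr8:111033843-111033866, minus strand): gagcgctcTGATGAAAagtgaccc
Gars (chr6:55037963-55037986, minus strand): ccggtgcaTGATGAAAtagcgcag
Iars (chr13:49682129-49682152, minus strand): tctggaggTGATGCAAtactgaca
Tars (chr15:11399658-11399681, plus strand): taaccagcTGATGCAAcgggactc
Yars (chr4:129189898-129189921, plus strand): agctcagcTGATGCAAcccgacgg

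With the first transcribed base of the RefSeq window counted as 0, the match nearest the upstream end began at base -112, in Aars, and the others between base -30, in Gars, and base 9, the second match of Aars. The starts used for Aars and Yars lie downstream of the annotated start of the gene. The core was present in 5 of 14 cytosolic windows and in 0 of 14 mitochondrial windows, against 2.65% of the windows of 8776 genes tested and 4.51% of all 27025 windows. Windows were held for 28 of 38 members (73.7%), under the minimum of 80% set for a check over a set, so these counts describe the searched genes alone. The E-box CACGTG, a site that Myc and other factors can bind, was found in Aars, Farsb, Iars and Tars among the cytosolic genes and in Ears2 among the mitochondrial ones, against 12.1% of the windows of genes tested and 8.09% of all windows. A match is a run of letters and not a measured binding site.

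The seed of miR-146a was searched for in the same transcripts. Mature miR-146a-5p is shown with its seed, bases 2 to 8, in capitals. Below it are the only sites found in the annotated 3′ UTRs of the synthetases, with the match in capitals. Each site matches bases 2 to 7 and is followed by an A, so none matches the whole seed.
miR-146a-5p (chr11:43374435-43374456, minus strand): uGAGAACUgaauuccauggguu
Cars (chr7:143557761-143557783, minus strand): ttacagctGTTCTCAcacctgaa
Sars (chr3:108425028-108425050, minus strand): taactcagGTTCTCAacctgtga
Tars (chr15:11382406-11382428, minus strand): tcctctatGTTCTCAggtgttaa
Wars (chr12:108860876-108860898, minus strand): tcatctctGTTCTCAggaggctg

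All 38 3′ UTRs were searched in the GENCODE M21 annotation. None held the 8-base match AGTTCTCA or the 7-base match AGTTCTC, and the 4 genes shown held the 7-base match GTTCTCA, each in its last exon. In Tars the match lies past the end of the gene in the RefSeq table. That is 10.5% of the synthetases, beside 18.04% of 10220 genes tested that had any of these matches. The median 3′ UTR of the synthetases was 373.5 bases long, against 965.5 bases over the genes searched. No mitochondrial synthetase held a match, so Lars2, the only member over 1.5-fold lower in the Tg library, had none either. Of the 4 genes with a match, Tars had a ratio below 1 and Cars, Sars and Wars had ratios above 1.

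Cytosolic synthetases were the more abundant group. Their median level was 19.9 RPKM in WT and 24.5 RPKM in Tg, and that of the mitochondrial group was 7.57 and 9.01 RPKM. Over all genes tested the median level was 11.3 and 11.5 RPKM. Farsa, the α subunit of the phenylalanine enzyme, had the highest cytosolic mean, at 48.9 RPKM in WT and 53.1 RPKM in Tg. The least abundant cytosolic member was Tarsl2, a second threonine enzyme, with 4.01 and 4.84 RPKM, and the least abundant of all was Pars2, which charges proline in mitochondria, with 1.30 and 1.60 RPKM. Pars2 rests on 42 and 55 fragments, and Lars2, the deepest member, on 9653 and 6814.

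**Figure D1:**
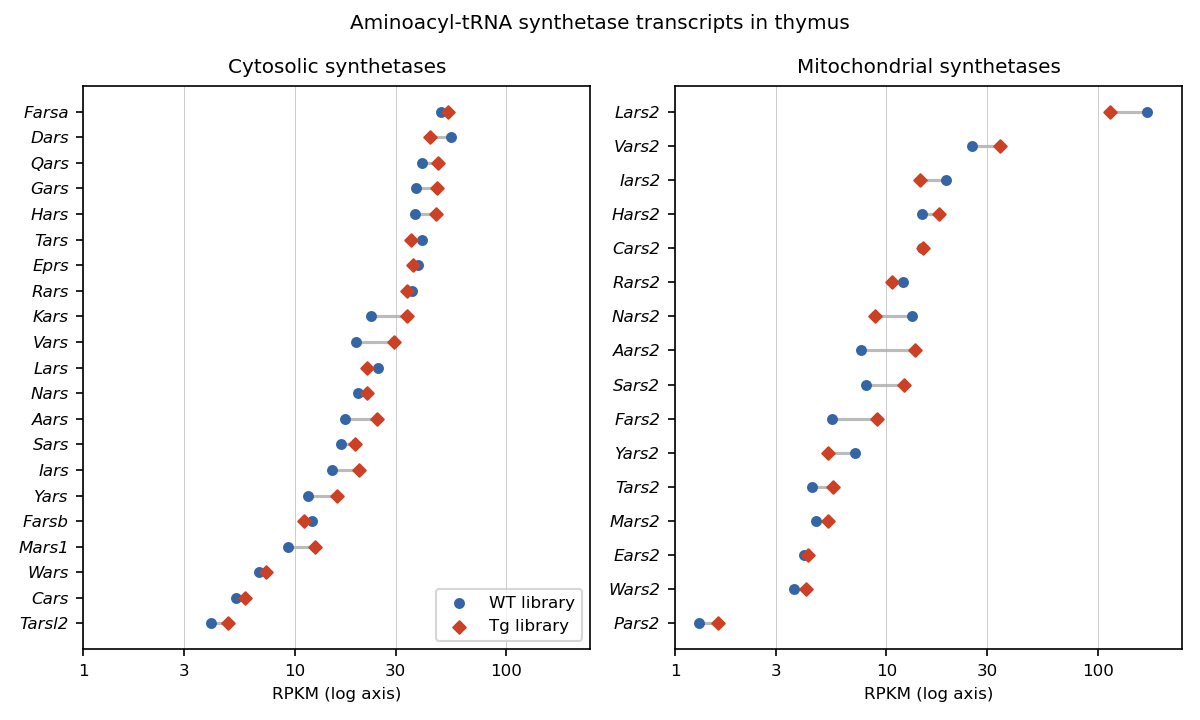
Level of each synthetase named in the text, in RPKM (log axis) in the WT library (circle) and the Tg library (diamond), with cytosolic members on the left and mitochondrial members on the right, ordered by mean. Lars2 stands apart at 171 RPKM in WT and 114 RPKM in Tg, while no other member passes 54.8 RPKM.

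As a family the synthetases lay slightly above equal values. Of the 38 members, 27 had a ratio above 1 and 11 a ratio below 1, with a median log2(Tg/WT) of 0.20, while 53.5% of all genes tested had a ratio above 1 and their median was 0.03. Aars2, Fars2, Sars2 and Vars had ratios over 1.5, as had 7.74% of all genes tested, and Lars2 alone was over 1.5-fold lower, as were 11.0%. The other 33 lay within 1.5-fold. The interval lay above 1 for 19 members, against a background of 31.7%, and below 1 for 8, against 27.1%. Several members sit at the 1.5-fold line. Vars and Sars2 both had a ratio of 1.52, Kars just inside had 1.47, Lars2 was 1.502-fold lower and Nars2 1.49-fold lower. The split of 4 higher and 1 lower became 2 and 2 with median centring or upper quartile scaling, and 7 and 0 when both libraries were rescaled to the same sum, which moved the median of all genes from 0.03 to 0.16.

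**Figure D2:**
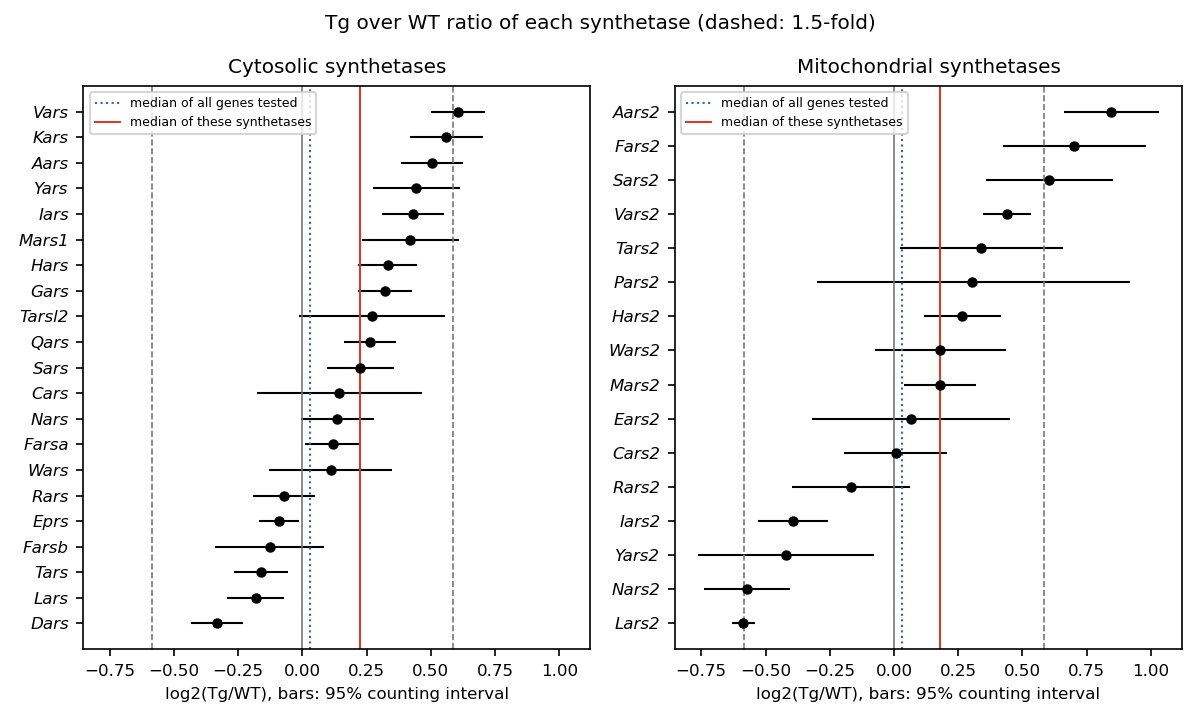
log2(Tg/WT) of each synthetase named in the text, with its 95% counting interval, which holds no variation between animals. Dashed lines mark 1.5-fold, the dotted line the median of all genes tested (0.03) and the red line the median of the group, 0.22 for cytosolic members on the left and 0.18 for mitochondrial members on the right.

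In the cytosol the enzymes for valine, lysine and alanine had the highest ratios. Vars, which charges valine (chromosome 17 of GRCm38.p6, 35000907 to 35016329), stood at 19.4 RPKM in WT and 29.5 RPKM in Tg, a ratio of 1.52 (1.41 to 1.64). Kars makes lysyl-tRNA for the cytosol and for mitochondria from 1 gene, and it had 22.9 and 33.8 RPKM, a ratio of 1.47 (1.34 to 1.63). Aars, the alanine enzyme, had 17.3 and 24.5 RPKM, a ratio of 1.42 (1.30 to 1.54). Its promoter window carries a pair of TGATGNAA matches and an E-box. Gars, the glycine enzyme, also serves both compartments, and stood at 37.5 and 46.9 RPKM, a ratio of 1.251 (1.16 to 1.35).

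Of the genes with a TGATGNAA core besides Aars and Gars, Yars and Iars lay on the same side and Tars did not. Yars, for tyrosine, had 11.6 and 15.8 RPKM, a ratio of 1.36 (1.21 to 1.53), and Iars, for isoleucine, had 14.9 and 20.1 RPKM, a ratio of 1.35 (1.24 to 1.46). Tars, for threonine, had 39.8 RPKM in WT and 35.6 RPKM in Tg, a ratio of 0.894 (0.832 to 0.962). The median log2(Tg/WT) was 0.43 over the 5 cytosolic genes with the core and 0.22 over the 9 cytosolic genes whose window lacked it, and over all 233 genes tested with the core it was 0.01. Cytosolic genes without a window, among them Vars, with the highest cytosolic ratio, and Lars, lower in the Tg library, are in neither median. A link between the core and the ratio was not tested.

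The enzymes for histidine, serine and asparagine also had ratios above 1. Hars and its mitochondrial counterpart Hars2 are read in opposite directions on chromosome 18 and overlap at their starts by only a few bases. Only there can reads of the one not be told from reads of the other without strand. Hars stood at 37.1 and 46.8 RPKM (ratio 1.26), Sars at 16.5 and 19.3 RPKM (ratio 1.17) and Nars at 19.9 and 21.8 RPKM, where the interval of the ratio, 0.996 to 1.21, held 1. Cars, for cysteine, had 5.28 and 5.83 RPKM and an interval of 0.885 to 1.38. At this depth no difference was detectable in the most abundant transcript of Cars, Nars, Tarsl2, Rars, Farsb or Wars in the cytosol. For Wars this depended on the transcript (below), and summing its transcripts moved its log2(Tg/WT) from 0.11 to 0.31.

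The lowest cytosolic ratio was that of Dars, which charges aspartate and was the most abundant cytosolic member in the WT library. It had 54.8 RPKM in WT and 43.5 RPKM in Tg, a ratio of 0.794 (0.741 to 0.851). Lars, the leucine enzyme, had 24.8 and 21.9 RPKM, a ratio of 0.882 (0.817 to 0.952). With Tars these were the cytosolic genes farthest below 1. Eprs, which joins the glutamate and proline enzymes in 1 polypeptide, had 38.4 and 36.1 RPKM, a ratio of 0.940 (0.891 to 0.992), and this ratio passed above 1 when both libraries were rescaled to the same sum.

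Members of the multisynthetase complex did not share a direction. The 8 genes of its enzymes are Dars, Eprs, Iars, Kars, Lars, Mars1, Qars and Rars, of which 4 had ratios above 1 and 4 below, with intervals above 1 for 4 and below 1 for 3, beside 31.7% and 27.1% of all genes tested. With 8 genes these counts are near the background. Mars1, for methionine, had 9.32 and 12.5 RPKM, a ratio of 1.34 (1.18 to 1.52). Qars, for glutamine, had 39.8 and 47.7 RPKM, a ratio of 1.20 (1.12 to 1.29). The highest level among the 8 genes was 5.88 times the lowest in the WT library and 3.82 times in the Tg library. Rars, for arginine, had 35.8 and 34.0 RPKM, a ratio of 0.952 (0.875 to 1.04) that also passed above 1 on rescaling to the same sum. The median log2(Tg/WT) was 0.10 for the 8 complex genes and 0.22 for the 13 other cytosolic genes. Of those 13 genes, 11 had ratios above 1, beside 53.5% of all genes tested.

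The scaffold proteins of the complex, which are not enzymes, differed as well. Eef1e1, also called AIMP3, had 38.2 RPKM in WT and 23.7 RPKM in Tg, 1.61-fold lower (ratio 0.620, 0.565 to 0.680). Aimp1 had 64.6 and 57.7 RPKM, a ratio of 0.893, and Aimp2 had 5.11 and 7.32 RPKM, a ratio of 1.43 on only 79 and 120 fragments.

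Phenylalanine is charged by an enzyme of paired α and β subunits, and their messages were unequal. Farsa was 4.04 times the level of Farsb in the WT library and 4.79 times in the Tg library. Farsa had a ratio of 1.09 (1.01 to 1.17), and Farsb, with 12.1 and 11.1 RPKM, a ratio of 0.915 (0.789 to 1.06). All 4 listed Farsb transcripts had ratios between 0.864 and 0.924.

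Wars, the tryptophan enzyme, is known as a gene induced by interferon-γ. Its most abundant transcript had 6.75 RPKM in WT and 7.28 RPKM in Tg, a ratio of 1.08 (0.914 to 1.27). Among 11 measured genes of an interferon list, 9 were over 1.5-fold lower, beside 11.0% of all genes tested, with a median log2(Tg/WT) of -1.13. Igtp and Irgm1, the other 2, had ratios of 0.684 and 0.739. The list is not limited to interferon-γ, and a link with Wars was not tested. The 3 Wars transcripts listed in the files differed more than those of any other member. The shortest, NM_011710, had 4.19 and 6.77 RPKM, a ratio of 1.62 (1.27 to 2.06), and NM_001164314 had 1.16 (0.979 to 1.38). The transcripts of 1 gene overlap and share reads, so these are not independent values. Among the 12 members with more than 1 transcript, the highest ratio exceeded the lowest by 1.499 times in Wars, 1.24 times in Yars2 and at most 1.13 times in the other 10. The interval of the less abundant transcript also held 1 in Dars (0.696 to 1.12) and Sars (0.956 to 1.15), where that of the more abundant one did not.

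Mitochondrial members spanned the wider range of ratios, and held both ends of the family. Their log2(Tg/WT) ran from -0.59 to 0.85, against -0.33 to 0.60 in the cytosolic group, with medians of 0.18 and 0.22. The interquartile range was 0.61 in the mitochondrial group and 0.49 in the cytosolic group. Without Lars2 it was 0.50 in the mitochondrial group, close to the cytosolic value. Aars2, which charges alanine in mitochondria (chromosome 17, 45503515 to 45520843), stood at 7.57 RPKM in WT and 13.6 RPKM in Tg, a ratio of 1.797 (1.58 to 2.04). Fars2, the single-chain phenylalanine enzyme, had 5.54 and 9.01 RPKM, a ratio of 1.63 (1.34 to 1.98). Sars2, for serine, had 8.003 and 12.2 RPKM, a ratio of 1.52 (1.28 to 1.81). Vars2, for valine, had 25.4 and 34.4 RPKM, a ratio of 1.36 (1.27 to 1.45).

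Lars2, the leucine enzyme of mitochondria (chromosome 9, 123366927 to 123462675), stood apart in level. At 171 RPKM in WT and 114 RPKM in Tg it had a ratio of 0.666 (0.645 to 0.687). It was 6.75 times the next mitochondrial member in the WT library and 3.32 times in the Tg library, and made up 53.2% and 40.2% of the summed mitochondrial level. The sum over the 17 genes was therefore lower in the Tg library (322 and 283 RPKM), whereas over the 16 others it was higher (151 and 169 RPKM). Its level was 6.91 times that of its cytosolic counterpart Lars in the WT library and 5.22 times in the Tg library.

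Nars2, Yars2 and Iars2 were the other mitochondrial members with intervals below 1. Nars2, for asparagine, had 13.2 and 8.86 RPKM, a ratio of 0.673 (0.599 to 0.754). Yars2, for tyrosine, had 7.12 and 5.32 RPKM, a ratio of 0.748 (0.589 to 0.947), although its other transcript, a noncoding one, had 0.930 (0.731 to 1.18). Iars2, for isoleucine, had 19.0 and 14.5 RPKM, a ratio of 0.761 (0.692 to 0.837). Hars2, for histidine, had 14.8 and 17.8 RPKM, a ratio of 1.20 (1.08 to 1.33), and Mars2, with a ratio of 1.13, also had an interval above 1. The most abundant transcript of Tars2 had a ratio of 1.27 (1.02 to 1.58), while its 3 other transcripts had ratios of 1.12 to 1.15 with intervals that held 1. For Cars2, Ears2, Pars2, Rars2 and Wars2 the interval held 1, and the ratio of Cars2, 1.00, passed below 1 with median centring, upper quartile scaling or allowance for transcript length.

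Enzymes for the same amino acid in the 2 compartments could be set side by side for 17 amino acids, in 19 pairs of genes. The pair lay on the same side of 1 in 11 cases and on opposite sides in 8. Most members of both groups had ratios above 1 (15 of 21 cytosolic and 12 of 17 mitochondrial), so unrelated genes would also often share a side. Eprs, Fars2 and Tars2 each enter more than 1 pair, so the pairs are not separate cases. In 11 pairs both intervals excluded 1, and of these 7 lay on the same side and 4 on opposite sides. Alanine and valine enzymes were higher in the Tg library in both compartments, and leucine enzymes lower in both. Among the opposite pairs were those of isoleucine (Iars higher, Iars2 lower), tyrosine (Yars higher, Yars2 lower) and threonine (Tars lower, Tars2 higher). The tyrosine and threonine pairs rest on the most abundant transcripts of Yars2 and Tars2, since the intervals of their other transcripts held 1. The cytosolic gene had the higher level in both libraries in 14 of 19 pairs, and the mitochondrial gene in 4.

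**Figure D3:**
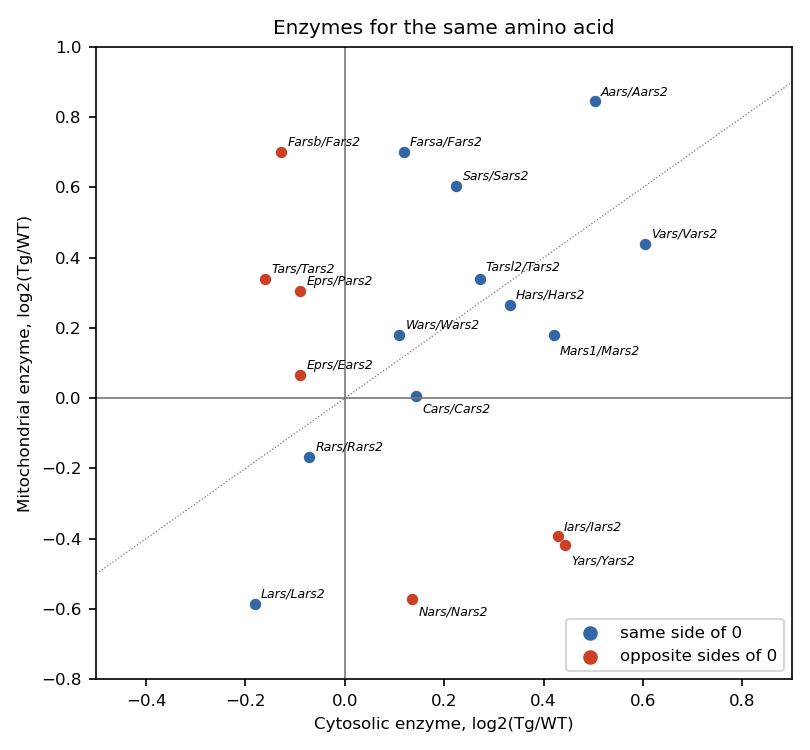
log2(Tg/WT) of the mitochondrial enzyme (vertical axis) against that of the cytosolic enzyme (horizontal axis) for the same amino acid, 1 point per pair of genes named in the text. The 11 pairs in blue lie on the same side of 0 and the 7 shown in red on opposite sides, and the dotted diagonal marks equal values.

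By structural class, 15 of 19 class II enzymes had ratios above 1 (median log2 of 0.30), as did 12 of 18 class I enzymes (median log2 of 0.13). Of all genes tested 53.5% had a ratio above 1 (median log2 of 0.03). Eprs holds 1 domain of each class and was left out of this count. Of the 4 members over 1.5-fold higher, Aars2, Fars2 and Sars2 are class II and Vars is class I. Transcript lengths ran from 1587 to 11528 bases, with a median of 2707, close to the 2753 of all genes tested.

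Other genes of tRNA charging and translation were taken from lists. Of 43 measured genes in 5 lists, 4 were over 1.5-fold higher and 2 over 1.5-fold lower, beside 7.74% and 11.0% of all genes tested, around a median of 0.12 on the log2 scale. The higher count is near that background, and it includes Trib3 (below), which passed the filter only through its Tg level. Trnt1, which adds the CCA end that every tRNA needs before charging, had 17.5 RPKM in WT and 9.80 RPKM in Tg, 1.79-fold lower (ratio 0.559, 0.487 to 0.641). It was the only 1 of 7 genes of editing and tRNA ends past 1.5-fold, and Eef1e1, above, was the other lower gene.

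Mitochondria lack a glutamine enzyme in mammals, and convert glutamate on the tRNA with an amidotransferase of 3 subunits. The list of this enzyme and Mtfmt, which formylates the initiator tRNA, had 0 of 4 genes past 1.5-fold. Mtfmt had 13.4 and 13.2 RPKM. Qrsl1 had 8.07 and 5.87 RPKM (ratio 0.727), Gatb 3.79 and 4.03 RPKM (ratio 1.06) and Gatc 10.04 and 12.6 RPKM (ratio 1.26). Of 9 elongation factors, which deliver charged tRNA to the ribosome or move it along, 8 had ratios above 1, beside 53.5% of all genes tested. The interval lay above 1 for 5 of the 9, beside 31.7%, and held 1 for Tsfm, Gfm1 and Gfm2. Tufm, the mitochondrial carrier of charged tRNA, was over 1.5-fold higher (19.0 and 29.6 RPKM, ratio 1.56, 1.39 to 1.75), while its cytosolic counterpart Eef1a1 had 3719 and 4238 RPKM, a ratio of 1.14.

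Of 22 listed genes of the amino acid response 20 were measured, of which 15 had ratios above 1, 3 were over 1.5-fold higher and 0 over 1.5-fold lower, with a median log2(Tg/WT) of 0.14. Of all genes tested, 53.5% had a ratio above 1, 7.74% were over 1.5-fold higher and 11.0% over 1.5-fold lower. Mthfd2, a mitochondrial folate enzyme, had 7.78 and 16.5 RPKM, a ratio of 2.12 (1.81 to 2.48), and Psat1, of serine synthesis, had 12.3 and 19.7 RPKM, a ratio of 1.61 (1.41 to 1.83). Trib3 had 0.604 RPKM in WT and 1.46 RPKM in Tg, a ratio of 2.41 on 18 and 46 fragments. It is among the 3 higher genes but passed the filter only through its Tg level. Atf4 itself lay on the other side, at 98.2 and 81.1 RPKM, a ratio of 0.826 (0.779 to 0.876). Chac1, a target of ATF4, had no fragments in either library, and Asns, which makes asparagine, had 13 and 4 fragments. Both fell under the filter and outside these counts. On its few fragments Asns had a ratio of 0.290 (0.0689 to 0.939). Myc, a transcription factor of cell growth, had 3.76 and 4.87 RPKM, a ratio of 1.30 (1.03 to 1.64), and its partner Max had 28.5 and 29.8 RPKM.

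**Figure D4:**
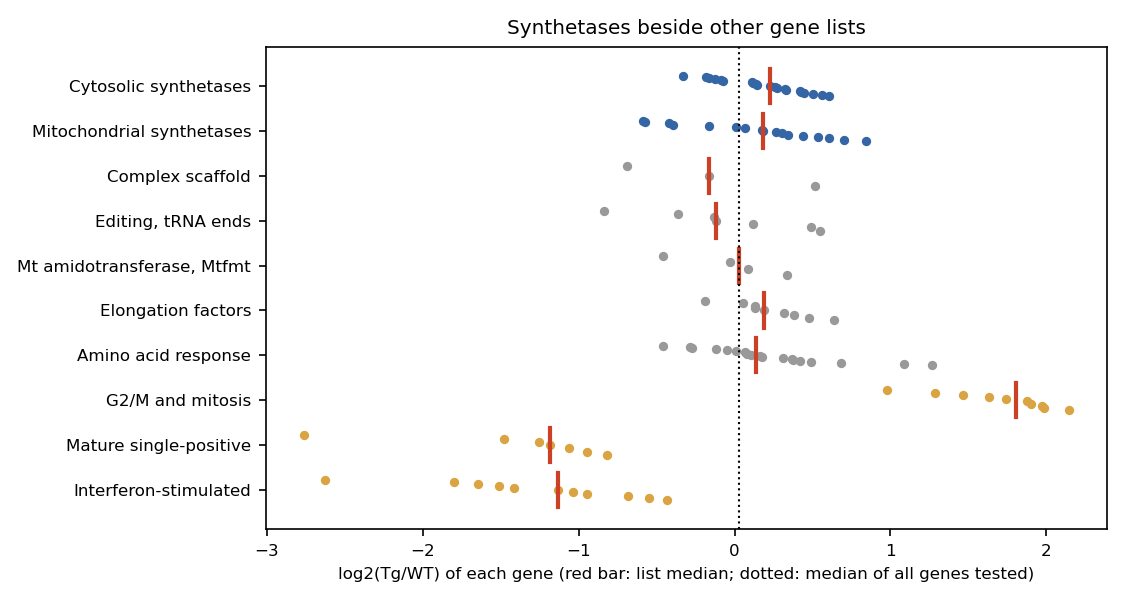
log2(Tg/WT) of each measured gene in the synthetase groups (blue), in related lists (grey) and in lists of cell division, mature T cells and interferon (ochre). Red bars are list medians. The synthetase medians, 0.22 and 0.18, lie beside 0.03 for all genes tested, 1.81 for G2/M and mitosis and -1.19 for mature single-positive cells.

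The libraries differed in the cells they held or in what those cells expressed, and in whole tissue fewer cells of a type and less RNA per cell cannot be told apart. For G2/M and mitosis, 10 of 10 listed genes were past 1.5-fold in the direction of the Tg library, with a summed level of 253 and 747 RPKM, and 7 of 7 genes of mature single-positive T cells were over 1.5-fold lower (945 and 370.2 RPKM). The 7 thymocyte genes, among them Cd4, Cd8a and Rag1, marked the tissue in both libraries, with a summed level of 2759.6 and 3374 RPKM. Among them Ptcra alone was over 1.5-fold higher (ratio 1.62). Neutrophil genes (5 of 5), erythroid genes (3 of 3 measured), macrophage genes (1 of 3 measured) and B cell genes (1 of 4 measured) were over 1.5-fold lower. The epithelial markers Foxn1, Krt5 and Krt8 were under 1 RPKM in both libraries. Psmb11 and Epcam, of the same list, lay between 2.34 and 3.21 RPKM. These lists were chosen with earlier results of these data known, so their counts are not independent evidence. Il7r, of the mature T cell list, is among the downregulated genes that the paper reports from its thymus RNA sequencing. The part of the differences between the libraries in the synthetase values was not tested.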

How the data were processed

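Polyadenylated thymus RNA was sequenced on a HiSeq instrument as 1 WT and 1 Tg library. For these files the authors aligned reads to build mm10 (per the labels) with a program their methods spell HotHap2, kept unique alignments and deposited RPKM values of 30533 RefSeq transcripts, although the methods speak of fragments. Neither the program's version nor its strand handling is given in the sources used here. Symbols came from the RefSeq table of GRCm38.p6 and the GENCODE M21 annotation (30188 transcripts). Mars1 was matched under its current name. Whole reads were recovered from the RPKM steps for 100% of transcripts (relative tolerance 1e-09), at 14522669 and 15396696 fragments behind the values, with 2 reads taken as 1 fragment. At 1 kb, a floor of 3 fragments equals 0.207 RPKM (WT) and 0.195 RPKM (Tg). The recovered length was within 20% of the annotated one for 35 of 38 members, and for Aars, Tars and Iars2 the smallest permitted length was used, which gives the widest interval.

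No count test was used, since 1 library per genotype would compare libraries and not genotypes. The result of 1 synthetase is not reported here, although the counts, sums and medians include it. The others are named, with full values by rule for the most abundant, the highest and lowest ratios, those past 1.5-fold and those of special role. In the lists of tRNA charging, translation and the amino acid response, members past 1.5-fold were named. Further genes (among them Atf4, Myc, Asns, Chac1 and the amidotransferase subunits) were chosen after their values were seen. Lists of cell types, cell division and interferon are given mainly as counts, sums or medians. The members and lists were chosen with earlier results of these data known. The reading and interval steps were tested on simulated data. Alternatives were a pseudocount of 1, no filter, a mean of at least 5 RPKM, median centring, upper quartile scaling, equal sums, sums or means of transcripts, and a running median over length (401 genes). Python 3.11.15, numpy 2.4.6, pandas 2.3.3, scipy 1.17.1 and matplotlib 3.10.9 were used.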

Additional observations from a re-analysis of the deposited data

How the results depend on the processing

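The family median log2(Tg/WT) stayed above 0 under all 9 alternatives, from 0.16 (pseudocount of 1, upper quartile scaling) to 0.33 (equal sums), and the cytosolic and mitochondrial medians stayed above 0 as well, down to 0.18 and 0.10 with the trend over transcript length subtracted. The counts past 1.5-fold, 4 higher and 1 lower, depended on the scaling. With a pseudocount of 1 they were 2 and 0, with median centring 2 and 2, with upper quartile scaling 2 and 2, with equal sums 7 and 0, and with the length trend subtracted 3 and 2. The 2 higher members left by centring were Aars2 and Fars2, and Nars2 joined Lars2 as lower. Aars and Kars were among those that equal sums added. Of 337 values of single members under alternatives, 322 lay within the member's own counting interval, and none of those past 1.5-fold changed direction. No paired analysis was possible because there was 1 library per genotype, and for the same reason no library could be left out. Counting error limits Pars2, Ears2, Yars2 and Cars most, and differences between animals were not measured.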
